A study of Homo sapiens with 8 samples.

Results

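Mitochondrial ribosomal proteins are nuclear-encoded subunits of the ribosome that works inside mitochondria, and they were examined here in a human breast cancer cell line carrying a hairpin against integrin α3. Members were all genes whose annotated symbol is MRPL (large subunit) or MRPS (small subunit) followed by a number and, for some, a letter from A to C. On the gene-level summary 65 of them, 42 MRPL and 23 MRPS genes, had a transcript cluster annotated to that gene alone. These are 65 of 14220 symbols read in this way, from 22011 clusters in all. On the exon-level summary 77 members, 49 MRPL and 28 MRPS genes, were read by 677 of 287329 probesets. Another 12 members were therefore read at the exon level only. For 10 of them the cluster carries several symbols and was not used, and MRPL20 and MRPL36 were not matched to a gene-level cluster here.

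RNA came from MDA-MB-231, an established triple-negative breast cancer line, stably transduced with lentivirus that expressed either a short hairpin RNA (shRNA) targeting α3 (the α3 knockdown) or a control shRNA. Both groups were otherwise grown alike in DMEM with serum and had 2 arrays each. RNA of each culture was read on its own Human Exon 1.0 ST array (Affymetrix), which was summarised once per gene and once per exon, so the exon-level values are a second reading of the same arrays. The series description calls the replicates biological; the labels give no rescue of α3 and no group with a different α3 hairpin, so loss of α3 and other effects of this hairpin or of the transduced cells cannot be told apart. In RNA of a whole culture, fewer cells that express a gene and less RNA per cell also cannot be told apart.

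The mitochondrial ribosome reads the few mRNAs of the mitochondrial genome, which encode core proteins of the respiratory chain and the ATP synthase. All its proteins are imported from the cytosol and assembled with the 12S and 16S ribosomal RNAs into a small and a large subunit. Part of the proteins descend from bacterial ribosomal proteins, and part occur only in mitochondria. Their genes are transcribed in the nucleus from housekeeping promoters, for which the factors GABP (an ETS protein), NRF1 and YY1 are known regulators.

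Each value is a linear PLIER intensity, the probe-model estimate that the authors deposited, and 4 arrays limit the precision. Differences are knockdown minus control after log2(value + 16), where the offset shrinks the differences of dim genes, and a gene was called when the limma p adjusted over all features tested by the Benjamini-Hochberg method was under 0.05. The median gene-level intensity was 168 and 171 on the knockdown arrays, against 177 and 186 on the controls. ITGA3, the target of the hairpin, measured 619 and 644 on the knockdown arrays, against 3479.8 and 3529 on the controls (log2 difference -2.44 ± 0.073 (SE), adjusted p = 8.04e-05). Of the markers chosen for the line, VIM, CD44, CAV1 and AXL were bright on every array (mean intensities from 1882 to 4977 over the arrays), while PTPRC of leukocytes averaged 26.7, PGR of luminal cells 19.2 and LUM of fibroblasts 13.6. CD68, a leukocyte marker, averaged 1666, and KRT18, a luminal keratin, 5084. CDH1, which encodes the epithelial E-cadherin, measured 177 and 168 on the knockdown arrays, against 25.4 and 28.8 on the controls, and was among the dim clusters left out of the test. Other markers also differed between the groups. KRT18 measured 5829 and 5466 in the knockdown against 4617 and 4422 in the controls, while KRT19 had 2357 and 2343 against 3812 and 4204, ERBB2 332 and 346 against 460.2 and 479.7, and ERBB3 223 and 226 against 265 and 277. Summed over 10 luminal markers, which thus moved in both directions, the intensity was 13785 and 12861 on the knockdown arrays, against 13605 and 13841 on the controls. The 4 markers of the line summed to 13951 and 13658 in the knockdown against 16399 and 16482 in the controls, with AXL at 2914 and 2908 against 4130.3 and 4217; the leukocyte sum was 1876 and 1870 (knockdown) against 2242 and 2140 (control), and the part of these markers in the results was not tested.

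Most mitochondrial ribosomal protein genes, 43 of 65, had a negative difference, but fewer passed the test, led by MRPL32. All 65 gene-level members passed the filter on dim clusters. In the knockdown 14 of 65 fell (21.5%), 2 rose (3.08%) and 49 did not pass the test. Of all 13207 clusters tested, 15.3% were called lower and 5.99% higher, which sets the scale for both counts; nothing particular to the members is read from them. The median log2 difference of the members was -0.16, beside -0.055 over all clusters, whose interquartile range ran from -0.25 to 0.11. Both knockdown arrays lay below both controls for 33 members and above both for 12, and the groups overlapped for 20. Over all clusters tested, 39.6% lay wholly below and 22.3% wholly above.

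The count depended on how the arrays were scaled. As deposited, the knockdown arrays were slightly dimmer as a whole. Quantile normalization turned the members' median to -0.10 and that of all clusters to 0.017, with 13 members lower and 4 higher (background 12.7% and 10.3%). Centring each array on its median gave 9 lower and 4 higher, with medians of -0.070 over the members and 0.036 over all clusters (background 11.4% and 11.3%). Under both scalings the members' median thus stayed below that of all clusters. Without the first knockdown array 2 members were called lower (MRPL32 and MRPS2) and 0 higher, and without the second again 2 (MRPL32 and MRPL17) and 0, so most single calls below rest on both knockdown arrays.

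**Figure D1:**
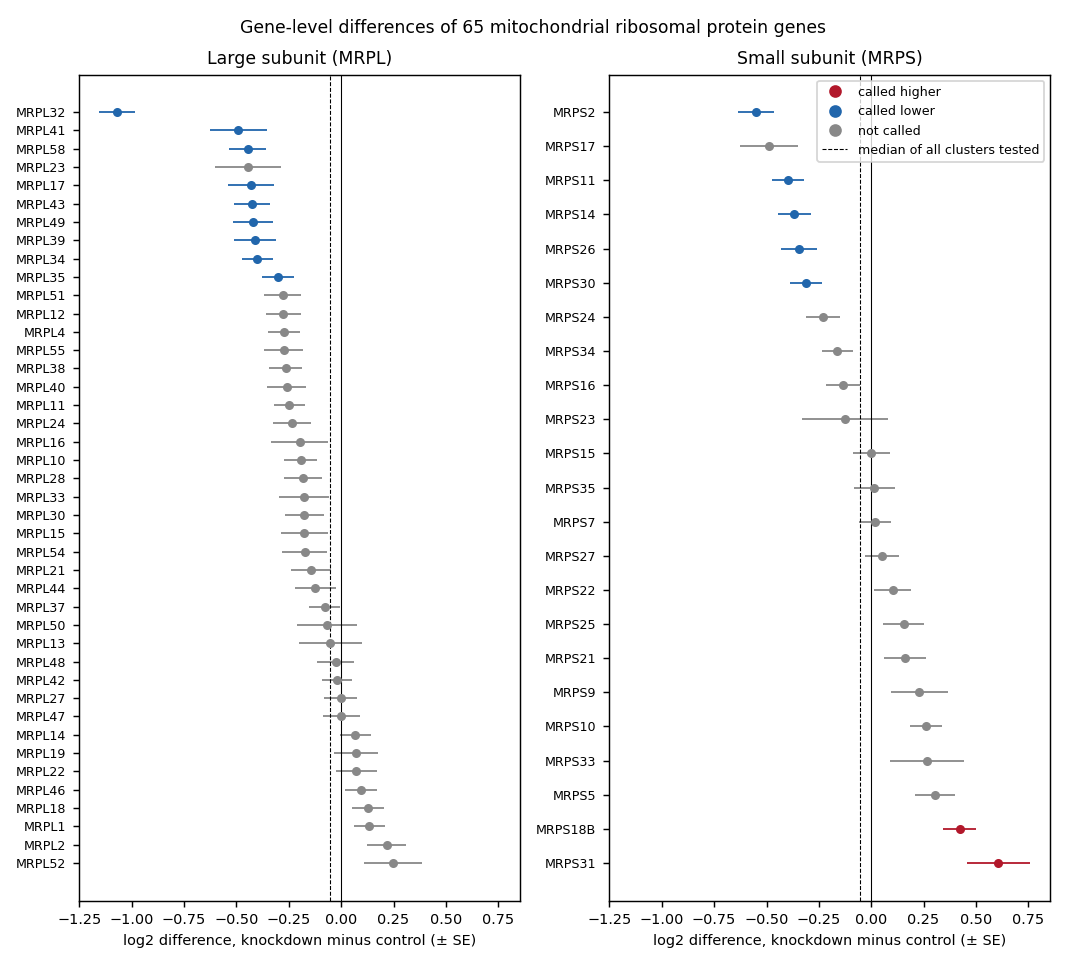
Log2 difference, knockdown minus control, of the 65 gene-level members (points, bars are ± SE; 2 arrays per group), large subunit on the left and small subunit on the right, sorted within each. The 14 genes called lower are blue, the 2 called higher red and the others grey; MRPL32 lies apart at -1.07, and both genes called higher belong to the small subunit.

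The large and the small subunit had equal shares of falls but differed in the middle of their distributions. Of 42 MRPL genes 9 fell (21.4%) and 0 rose, and 33 had a negative difference. Of 23 MRPS genes 5 fell (21.7%) and 2 rose (8.70%), and 13 had a positive difference. The shares over all clusters tested were 15.3% lower and 5.99% higher, and no contrast between subunits is read from the counts called. The median log2 difference was -0.18 for MRPL genes and 0.015 for MRPS genes, with interquartile ranges from -0.28 to -0.021 and from -0.27 to 0.20. The gap of -0.19 between the medians is a description with no test; it ran from -0.23 to -0.16 when single arrays were left out.

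Array by array the contrast was smaller and less even. The median log2 level of MRPL genes minus that of MRPS genes was -0.072 and -0.12 on the knockdown arrays, against -0.061 and 0.048 on the controls. The knockdown arrays were the 2 lowest, but the first control array lay only slightly above the first knockdown array, and the controls differed from each other by more than that. Symbols do not always match the place in the ribosome: MRPS30 is named for the small subunit, while structures of the mammalian ribosome place it in the large one. With MRPS30 moved, 10 of 43 large-subunit and 4 of 22 small-subunit genes were lower, and the gap between medians was -0.20.

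**Figure D2:**
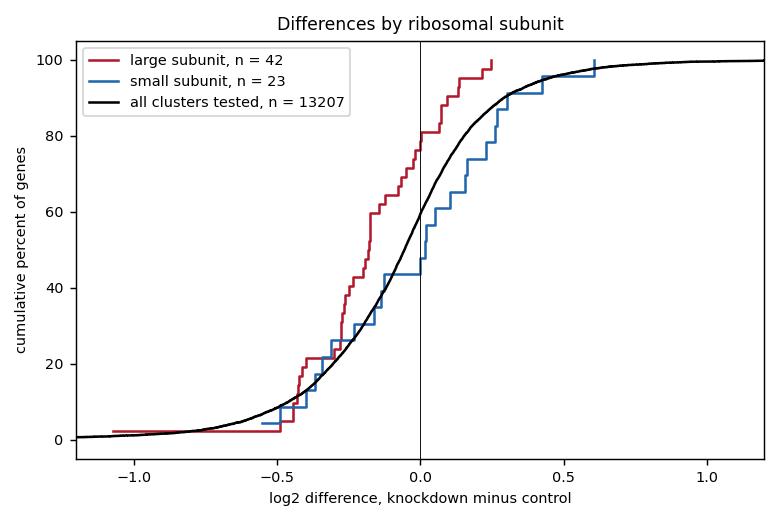
Cumulative percent of genes (vertical axis) against log2 difference, knockdown minus control (horizontal axis, drawn from -1.2 to 1.2), for 42 MRPL genes, 23 MRPS genes and all 13207 clusters tested. The MRPL curve runs left of the curve of all clusters over most of its middle, with its median at -0.18 against -0.055; the MRPS curve crosses it, with its median at 0.015.

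MRPL32, a protein of bacterial descent that the mitochondrial m-AAA protease must cleave before it enters the large subunit, had the largest difference of any member. Its cluster (2999303, chromosome 7) measured 259 and 267 on the knockdown arrays, against 561 and 578 on the controls. All values of a group lay close together and the groups were far apart, with a log2 difference of -1.07 ± 0.086 (SE), or 2.10-fold lower (adjusted p = 0.00166). It was the one member that stayed called under all 13 alternatives, with adjusted p from 0.00869 to 0.0100 when single arrays were left out. RefSeq lists 2 pseudogenes of MRPL32.

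Among the other large-subunit genes of bacterial descent, MRPL34 measured 947 and 949 in the knockdown, against 1254 and 1256 in the controls (log2 difference -0.40 ± 0.072, adjusted p = 0.0143). Both pairs were tight and well separated. MRPL17, which lies at the exit of the peptide tunnel, was more spread, at 964 and 1147 in the knockdown against 1351 and 1497 in the controls (-0.43 ± 0.11, adjusted p = 0.0375). MRPL35 measured 559 and 560.1 in the knockdown and 689 and 697 in the controls (-0.30 ± 0.077, adjusted p = 0.0397); it has 4 pseudogenes in RefSeq, and probes may read such copies too. The median of its 9 tested exon-level probesets differed by only -0.030 ± 0.13 (adjusted p = 0.915).

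Mitochondrion-specific proteins of the large subunit made up the rest of the MRPL falls. MRPL58, a peptidyl-tRNA hydrolase built into the ribosome, had 839 and 896 in the knockdown, against 1127 and 1249 in the controls (-0.45 ± 0.088, adjusted p = 0.0181). MRPL43 measured 659.7 and 675 (knockdown) against 861 and 946 (control), a difference of -0.43 ± 0.084 (adjusted p = 0.0185). For MRPL49 the knockdown arrays gave 407 and 372, and the controls 505 and 549.9 (-0.42 ± 0.095, adjusted p = 0.0270). The knockdown arrays lay below the controls in each of these genes.

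MRPL39, an exit-site protein with a domain related to threonyl-tRNA synthetase, measured 432 and 425 in the knockdown and 535 and 618 in the controls (-0.41 ± 0.099, adjusted p = 0.0330). MRPL41 gave 752 and 760.3 in the knockdown and 929 and 1229 in the controls (-0.49 ± 0.13, adjusted p = 0.0479). Its controls differed from each other more than the lower control differed from the knockdown arrays, and its call was the closest to the threshold. The 4 intensities of its cluster are those of a single probeset, 3195347, which did not pass among all probesets (adjusted p = 0.139), and its other tested probeset was at -0.014.

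In the small subunit, MRPS2, of bacterial descent, had the largest fall: 929.7 and 877 in the knockdown, against 1266 and 1398 in the controls (-0.55 ± 0.086, adjusted p = 0.00934). It lost its call only without the second knockdown array (adjusted p = 0.0614), where the other 12 alternatives kept it. MRPS11 on the platform of the small subunit measured 555 and 544 (knockdown) against 722 and 736 (control), -0.40 ± 0.078 with adjusted p = 0.0179. MRPS14 in the head gave 774 and 819 in the knockdown and 1028 and 1034 in the controls (-0.37 ± 0.077, adjusted p = 0.0220). These 3 genes stood apart from their controls by more than either group's spread.

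MRPS30 and MRPS26, both mitochondrion-specific, had smaller falls. MRPS30 measured 764 and 741 in the knockdown, against 957 and 916 in the controls (-0.31 ± 0.077, adjusted p = 0.0361). MRPS26 measured 707 and 666 in the knockdown, against 837 and 914 in the controls (-0.34 ± 0.086, adjusted p = 0.0369). After centring, neither passed (adjusted p = 0.103 and 0.0620), nor did MRPL35 (0.0875), MRPL41 (0.0523) or MRPL17 (0.0513), and after quantile normalization MRPS30 (0.0827) and MRPL35 (0.0729) did not pass.

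Only MRPS18B and MRPS31 rose. MRPS18B is one of 3 human paralogs of bacterial S18, which occupy different places in the ribosome. It measured 2275 and 2223 in the knockdown, against 1744 and 1604 in the controls (0.42 ± 0.079, adjusted p = 0.0157), and it has 2 RefSeq pseudogenes. MRPS31, a mitochondrion-specific protein of the head, measured 338 and 379.7 in the knockdown, against 198 and 267 in the controls (0.61 ± 0.15, adjusted p = 0.0371). The MRPS31 controls were spread widely, and MRPS31 has 3 RefSeq pseudogenes, so its value is uncertain. After either scaling MRPS10, with 2167 and 2306 in the knockdown against 1819.6 and 1909 in the controls, also passed (adjusted p = 0.0341 by quantile normalization and 0.0195 by centring), as did MRPS5, with 973 and 1084 against 786 and 874 (0.0224 and 0.0200).

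Leaving out 1 knockdown array weakened nearly all of these calls. Without the first or without the second knockdown array, MRPL34 had adjusted p = 0.0863 and 0.0975, MRPS18B 0.0831 and 0.0770, and MRPS11 0.101 and 0.136. For MRPL58 the values were 0.104 and 0.0693, for MRPL43 0.104 and 0.0988, and for MRPS14 0.151 and 0.102. These 6 genes kept their call in every other alternative run, including both scalings. No called member changed sign under any of the 13 alternatives.

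The other 8 called members were more dependent on single arrays and on the filter. With the dim clusters kept, the adjusted p was 0.0540 for MRPL49, 0.0656 for MRPL39, 0.0624 for MRPS30 and 0.0692 for MRPS26. It was 0.0838 for MRPS31, 0.0827 for MRPL17, 0.0641 for MRPL35 and 0.106 for MRPL41, so all 8 lost their call. MRPS30 (0.0552), MRPS26 (0.0541), MRPL17 (0.0556), MRPL35 (0.0550) and MRPL41 (0.0649) also failed without the intensity trend. Without the first or the second knockdown array, the adjusted p was 0.0866 and 0.192 for MRPL49, 0.132 and 0.169 for MRPL39, 0.155 and 0.228 for MRPS30, and 0.121 and 0.230 for MRPS26. It was 0.0805 and 0.174 for MRPS31, 0.211 and 0.229 for MRPL35, and 0.135 and 0.143 for MRPL41. MRPL17 lost its call without the first (0.184) and kept it without the second (0.0496). Without the second control array MRPL49 (0.0708), MRPL39 (0.0744), MRPS26 (0.0877), MRPL41 (0.0677), MRPL17 (0.110) and MRPL35 (0.0743) did not pass, and without the first MRPS30 (0.0765), MRPS31 (0.0710), MRPL17 (0.0504) and MRPL35 (0.0641) did not.

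**Figure D3:**
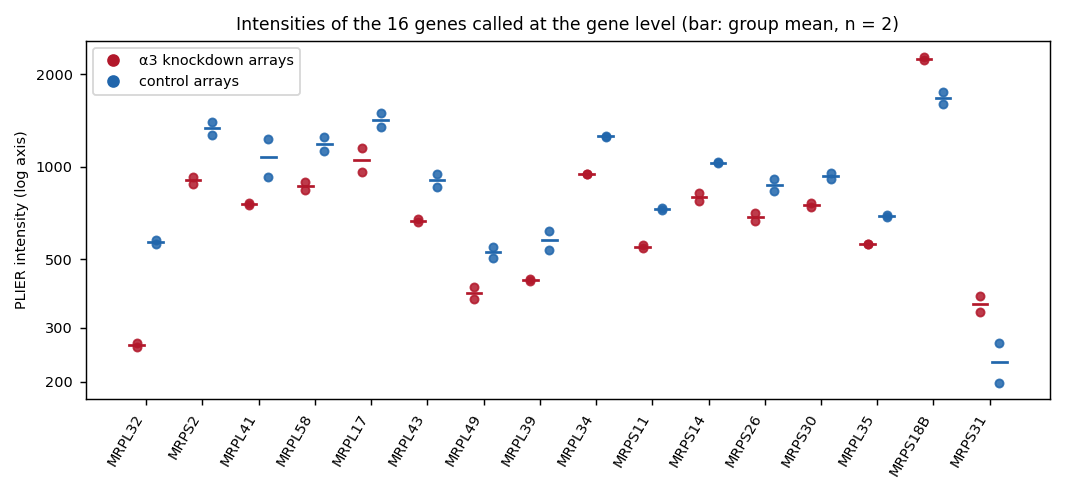
PLIER intensity (log axis) of the 16 members called at the gene level, ordered by log2 difference; each point is an array, knockdown (red) left of control (blue), and bars are group means (n = 2). In the 14 genes called lower both red points lie below both blue points, with the widest gap in MRPL32; in MRPS18B and MRPS31 both red points lie above.

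By position in the ribosome no structural group had all its genes called, and the groups are small. Of all clusters tested, 15.3% were called lower and 5.99% higher, which sets the scale for the counts below. Among the large-subunit stalk proteins MRPL1, MRPL10, MRPL11, MRPL12 and MRPL54, 0 of 5 tested genes were called. MRPL11 (-0.25, adjusted p = 0.0614) was the nearest to the threshold and MRPL54 (-0.17, adjusted p = 0.304) the farthest. MRPL1 (0.13, adjusted p = 0.246) belongs to the L1 stalk. The others belong to the L7/L12 stalk and its base, where translation factors bind. The central protuberance had 0 of 4 called, between MRPL38 (-0.26, adjusted p = 0.0586) and MRPL48 (-0.026, adjusted p = 0.867). At the polypeptide exit 2 of 6 genes fell, MRPL39 and MRPL17, and MRPL22 was at 0.072 (adjusted p = 0.653). The head of the small subunit had 1 lower and 1 higher of 8, with MRPS35 at 0.015 (adjusted p = 0.937), and the body 2 lower and 1 higher of 13, with MRPS15 near 0 (adjusted p = 0.997).

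Members numbered after bacterial proteins had 7 lower (19.4%) and 1 higher (2.78%) of 36. Members numbered only in mitochondria had 7 lower (24.1%) and 1 higher (3.45%) of 29. Their medians were -0.18 and -0.13. Of 31 members with at least 1 pseudogene in RefSeq 4 were lower (12.9%) and 2 higher (6.45%). Of the 34 without any 10 were lower (29.4%) and 0 higher. Of all clusters tested, 15.3% were lower and 5.99% higher. Both genes called higher and MRPL32 are among the members with a pseudogene, and whether their probes also read copies was not tested. Of the brightest and dimmest clusters of each subunit, MRPL51 had 3407 and 3312 in the knockdown against 3829 and 4346 in the controls, and MRPL52 had 228 and 273 against 188 and 229. MRPS16 had 2815 and 2898 in the knockdown against 2993 and 3296 in the controls, and MRPS33 had 253 and 286 against 184 and 266. None of these 4 passed the test.

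The exon-level summary asked whether the gene-level differences ran along the whole transcript. Of 677 member probesets 595 passed the filter; 13 were called lower (2.18%) and 1 higher (0.168%), beside 3.25% lower and 1.33% higher of all 172398 probesets tested. The 13 lay in MRPL32, MRPL43 and MRPS2 with 3 each, and in MRPL17, MRPL34, MRPL57 and MRPL58 with 1 each. The one in MRPL57, a member with no cluster of its own, had 1558 and 1502 in the knockdown, against 2169 and 2205 in the controls (-0.51 ± 0.12, adjusted p = 0.0488). The single higher probeset belonged to MRPS5 and had 2626 and 3018 in the knockdown, against 1886 and 2012 in the controls (0.53 ± 0.13, adjusted p = 0.0496).

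Taking the median over the probesets of a gene, 72 members had the required 3 tested probesets or more. Of these, 9 were lower (12.5%, background 9.57%) and 1 higher (1.39%, background 3.74%). Called lower were MRPL32 (-0.89 ± 0.12, adjusted p = 0.00269), MRPS2 (-0.61, 0.0132), MRPS12 (-0.59, 0.0161), MRPL39 (-0.54, 0.0180), MRPL43 (-0.54, 0.0285), MRPS14 (-0.46, 0.0369), MRPS11 (-0.44, 0.0352), MRPL34 (-0.43, 0.0343) and MRPL51 (-0.37, 0.0413), with the log2 difference and then the adjusted p in each bracket. MRPS6, read at the exon level only, was higher (0.42 ± 0.11, adjusted p = 0.0370), with all 3 probesets above the controls. Of these 10 medians MRPL32 alone stayed called whichever array was left out (adjusted p from 0.00353 to 0.0173). MRPS2 lost its call without the second control (0.0565) or the second knockdown array (0.0597), and MRPL39 without the same arrays (0.0621 and 0.123). MRPS6 kept it without the second control array alone, MRPL51 without the first control array alone, and MRPL43, MRPL34, MRPS11 and MRPS14 lost it whichever array was left out. After centring MRPS11 (0.0577), MRPS14 (0.0822) and MRPL51 (0.0801) did not pass, and after quantile normalization MRPS14 (0.0586) and MRPL51 (0.0640) did not. Without the filter MRPL43 (0.210), MRPL39 (0.195), MRPS14 (0.173), MRPS6 (0.128), MRPS11 (0.0784) and MRPL51 (0.0520) did not pass. MRPL43 also failed with the lower 60% of probesets left out (0.444), and without the intensity trend MRPL34 (0.0769), MRPS11 (0.0581), MRPS14 (0.0619), MRPL51 (0.116) and MRPS6 (0.0767) did not pass.

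Across the 62 members with both readings 55 had the same sign, and the gene-level and exon-level differences correlated at r = 0.91 across genes, as a description of 2 summaries of the same arrays. Called in both were 7 genes, and 7 more at the gene level alone: MRPL58, MRPL17, MRPL35, MRPS26, MRPS30, MRPS18B and MRPS31. By exon-level median MRPL58 was at -0.37 (adjusted p = 0.0770), MRPL17 at -0.24 (0.392), MRPS26 at -0.23 (0.281) and MRPS30 at -0.21 (0.262). MRPL41 and MRPL49 had too few tested probesets for a median. MRPS17, named after its values were seen, was the widest mismatch of the 62: it had -0.49 on the gene level (346 and 422 in the knockdown, 489.9 and 602 in the controls, adjusted p = 0.0533) and 0.0033 by the median of its 3 probesets. Its cluster, too, has the intensities of a single probeset, 3003151. It has 6 RefSeq pseudogenes.

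Within MRPL32, 3 of 4 tested probesets fell together. Probeset 2999305 measured 220.2 and 256 in the knockdown, against 488 and 491 in the controls (-0.997 ± 0.19, adjusted p = 0.0255). Probeset 2999307 measured 511 and 472 in the knockdown, against 1256 and 1097 in the controls (-1.23 ± 0.16, adjusted p = 0.00504). Probeset 2999311 measured 635 and 519.95 in the knockdown, against 1425 and 1361 in the controls (-1.25 ± 0.16, adjusted p = 0.00457). The groups were far apart on each of these 3.

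The remaining MRPL32 probeset, 2999304, ran the other way, with 987 and 1418 in the knockdown, against 792 and 919.8 in the controls (0.46 ± 0.19, adjusted p = 0.204). Relative to the mean of the other 3 it was 1.62 ± 0.21 higher on the log2 scale, with adjusted p = 0.103. In that test of each probeset against the rest of its gene, limma called 0 of 588 member probesets, where 20 had an unadjusted p under 0.05; of all probesets so tested, 0.0444% were called. Probeset 2999304 was called without the first knockdown array and with the replicate number as a block.

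In MRPL43 all 14 tested probesets were lower, 9 of them with both knockdown arrays below both controls. The widest difference was at probeset 3303659, with 64.8 and 36.1 in the knockdown, against 153 and 215 in the controls (-1.61 ± 0.33, adjusted p = 0.0308). All 6 tested probesets of MRPS2 were lower as well, and 5 of these did not overlap the controls. MRPS31 had 6 of 7 probesets wholly above the controls and none called; its median difference of 0.79 ± 0.25 did not pass (adjusted p = 0.0720).

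The S18 paralogs had median differences of both signs. MRPS18B had 10 of 11 probesets wholly above the controls, with a median difference of 0.30 (adjusted p = 0.0786). MRPS18C, the direct counterpart of bacterial S18, had a median of 0.49 ± 0.19 (adjusted p = 0.135) with 6 of 6 probesets higher, and 6 RefSeq pseudogenes. MRPS18A, which structures place in the large subunit, had -0.39 ± 0.12 (adjusted p = 0.0686) with 7 of 7 probesets lower. None of these 3 medians passed, and the differences between paralogs were not tested.

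**Figure D4:**
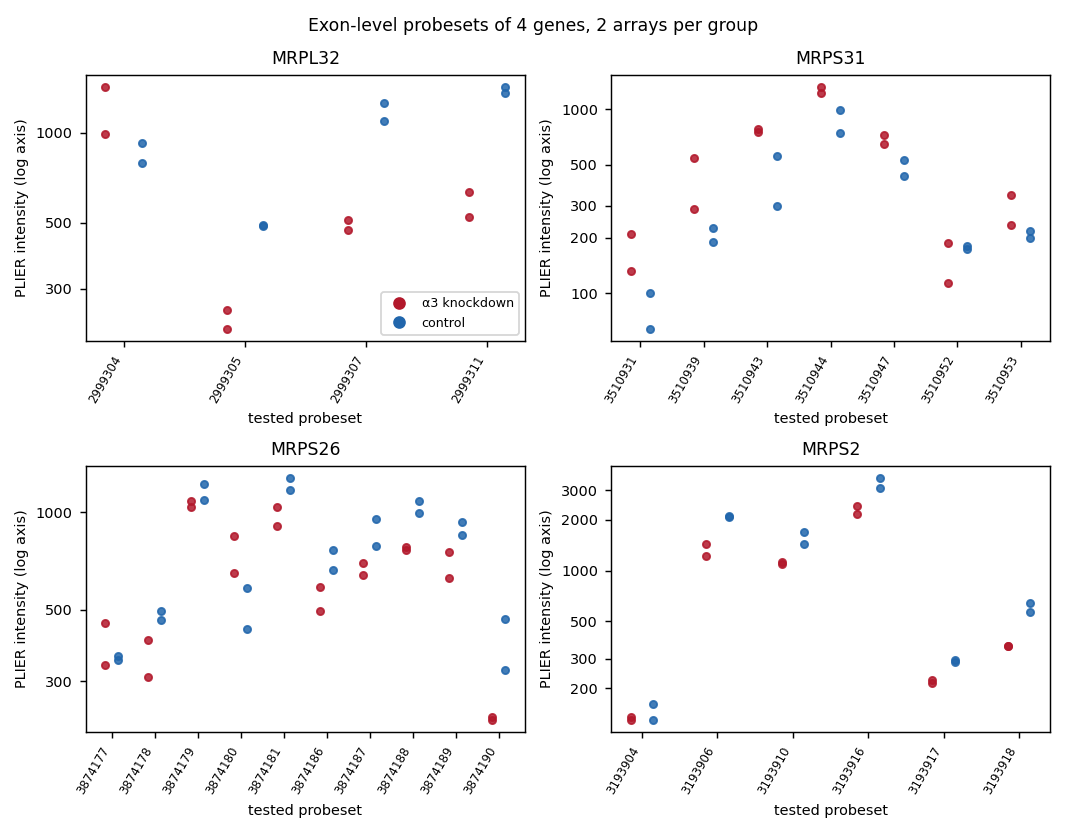
PLIER intensity (log axis) of each tested exon-level probeset of MRPL32, MRPS31, MRPS26 and MRPS2, by probeset number; each point is an array, knockdown (red) left of control (blue). In MRPL32 3 probesets lie clearly lower in the knockdown and 2999304 lies higher; in MRPS31 all but 1 of 7 lie higher, and in MRPS2 5 of 6 lie wholly lower.

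Some mitochondrial ribosomal protein genes start close to a neighbour that is transcribed in the opposite direction. By RefSeq start sites (assembly GRCh38.p14), 24 members had a neighbour starting within 500 bases on the opposite strand, in 23 pairs. How common such pairs are among all genes, and how often both genes of a pair are called, was not computed. For 12 pairs both genes had an exon-level median, and 6 of these had the same sign. At the gene level both genes were read in 7 pairs, of which 2 had the same sign. MRPL57 and SKA3, which starts 106 bases away, had differences of -0.25 ± 0.12 and -0.23 ± 0.17, neither of which passed (adjusted p = 0.224 and 0.430). The SKA3 groups overlapped, with median log2 levels of 8.96 and 9.12 in the knockdown against 9.02 and 9.52 in the controls. RefSeq lists 8 pseudogenes of MRPL57. The pair with both genes called was MRPS12, a decoding-site protein of bacterial descent, and SARS2, the mitochondrial seryl-tRNA synthetase, whose starts lie 181 bases apart. Their gene-level clusters carry both symbols, so the comparison rests on probesets annotated to 1 of the 2 genes alone.

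MRPS12 had median log2 levels of 9.06 and 9.04 on the knockdown arrays, against 9.55 and 9.72 on the controls (difference -0.59 ± 0.12, adjusted p = 0.0161). SARS2 had 8.39 and 8.39 on the knockdown arrays, against 9.03 and 8.96 on the controls (-0.61 ± 0.13, adjusted p = 0.0169). None of the other 11 pairs had both genes called. Neither call held without the first knockdown array (adjusted p = 0.0649 for MRPS12 and 0.0766 for SARS2) or without the second (0.0737 and 0.0807). MRPS12 also lost its call without the second control array (0.0658), and SARS2 without the first (0.0610) and when the lower 60% of probesets was left out (0.113).

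The MRPL32 fall, in contrast, was not shared by its neighbour PSMA2, a proteasome subunit gene that starts 202 bases away. PSMA2 measured 759 and 783 in the knockdown, against 692 and 716 in the controls (gene-level difference 0.13 ± 0.077, adjusted p = 0.291). MRPS11 and MRPL46 are neighbours of one another, 320 bases apart. MRPL46, a protein of the central protuberance, measured 986 and 1005 in the knockdown, against 903 and 961 in the controls (0.094 ± 0.078, adjusted p = 0.445), where MRPS11 fell.

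**Figure D5:**
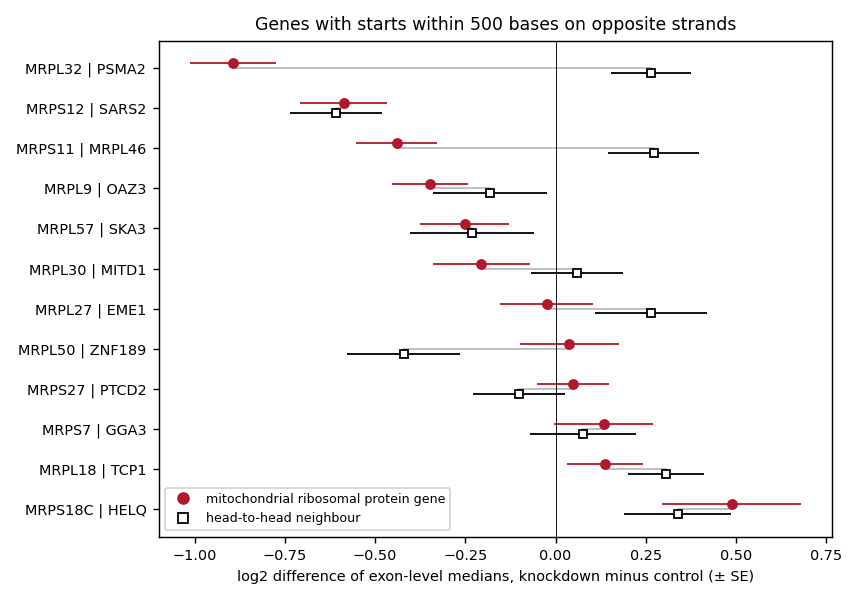
Log2 difference of exon-level medians (± SE), knockdown minus control, for 12 head-to-head pairs; red circles are the first-named member and open squares its neighbour. MRPS12 and SARS2 lie together near -0.6, while MRPL32 and PSMA2 lie on opposite sides of 0, as do MRPS11 and its neighbour MRPL46, which is itself a mitochondrial ribosomal protein gene.

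Promoter sequences of 69 members were found in RefSeq, and their 250 bases before the annotated start were searched on both strands for 4 short motifs. The ETS core CCGGAAG was in 33.3% of the members, against 8.82% of 27305 genes. These 27305 are all genes with a promoter listed, non-coding ones such as MRPS30-DT included. A set of expressed or housekeeping genes was not compared, so the shares below are not read as particular to the members. The YY1 core AAGATGGC was in 7.25% against 1.37%, and the E-box CACGTG in 8.70% against 6.49%. An NRF1-like palindrome, GCGCA then any base then GCGC, was in 11.6% against 5.53%. No 2 of these matches overlapped in a member. Of the members, the ETS core was in 14 of 42 MRPL and 9 of 27 MRPS promoters. It was in 3 of 13 matched genes called lower, 1 of 2 called higher and 14 of 43 not called. The YY1 core was in 1 of the 13 called lower, 0 of the 2 called higher and 2 of the 43 not called. MRPS12, which had no gene-level call, is in none of these counts. MRPS11, called lower, had none of the 4 motifs, and MRPS31, called higher, had the ETS core.

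The promoters of MRPL32 and MRPS12 are shown because these genes had the largest fall and the fall shared with a neighbour, and that of MRPL43 because it carries the ETS core beside its start. They were chosen after the values were seen and all belong to genes that fell, so they show no link between a motif and a fall. Capitals mark the motif as it reads on the printed strand, and the last base stands next to the start site. They lie at chr7:42932126-42932375 (plus strand), chr19:38930694-38930943 (plus strand) and chr10:100987498-100987747 (minus strand) of GRCh38.p14.
MRPL32: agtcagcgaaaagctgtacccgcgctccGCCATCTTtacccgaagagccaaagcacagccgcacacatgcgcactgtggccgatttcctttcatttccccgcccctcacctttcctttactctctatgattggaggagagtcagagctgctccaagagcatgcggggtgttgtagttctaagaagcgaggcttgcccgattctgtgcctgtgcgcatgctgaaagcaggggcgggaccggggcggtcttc
MRPS12: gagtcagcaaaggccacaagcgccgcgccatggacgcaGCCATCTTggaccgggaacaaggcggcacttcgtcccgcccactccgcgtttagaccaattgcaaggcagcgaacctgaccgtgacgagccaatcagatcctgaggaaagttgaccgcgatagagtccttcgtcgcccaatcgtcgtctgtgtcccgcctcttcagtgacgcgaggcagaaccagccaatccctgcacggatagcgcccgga
MRPL43: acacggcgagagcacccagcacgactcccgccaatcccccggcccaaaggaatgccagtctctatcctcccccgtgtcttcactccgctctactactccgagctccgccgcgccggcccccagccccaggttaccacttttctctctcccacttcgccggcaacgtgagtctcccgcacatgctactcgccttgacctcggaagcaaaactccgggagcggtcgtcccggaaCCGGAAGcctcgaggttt
In MRPL32 and MRPS12 the capitals are the reverse complement of the YY1 core, 222 and 212 bases before the start, and in MRPL43 the ETS core, 18 bases before the start. The nearest listed starts of the neighbours PSMA2 and SARS2 lie 202 and 181 bases from those of MRPL32 and MRPS12. Measured so, both YY1 matches lie past the neighbour's start, on the side that the neighbour transcribes. A match is a run of letters and says nothing of binding in these cells.

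Genes that serve the mitochondrial ribosome moved in both directions. Of 75 tested genes in 6 lists, 9 were lower and 4 higher, 12% and 5.33% beside the 15.3% and 5.99% of all clusters, and their median difference was 0.0083. After quantile normalization or centring the counts were 8 lower and 12 higher. Without the first or the second knockdown array 0 of the 13 calls remained.

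A list of 4 tested genes held ribosomal proteins under other symbols and OXA1L, an inner-membrane insertase that binds the ribosome. In it GADD45GIP1, a large-subunit protein also known as CRIF1, fell. It measured 1195 and 1193 in the knockdown, against 1650.1 and 1600.5 in the controls (-0.44 ± 0.072, adjusted p = 0.0107). DAP3, OXA1L and CHCHD1 were not called. Of 20 assembly factors 4 fell (20.0%) and 0 rose, beside 15.3% and 5.99% of all clusters. MRM1, which methylates the 16S rRNA, measured 139 and 137 in the knockdown, against 221 and 243 in the controls (-0.69 ± 0.11, adjusted p = 0.00987). RPUSD4, a pseudouridine synthase of the 16S rRNA, was at -0.45 (adjusted p = 0.0285), the GTPase MTG1 at -0.49 (0.0345) and ERAL1, a chaperone of the 12S rRNA, at -0.27 (0.0493).

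Of 12 translation factors 3 were higher and 0 lower; whether they differ from the other lists was not tested. LRPPRC, which stabilises mitochondrial mRNAs, measured 2737 and 2767 in the knockdown, against 1969.5 and 2063 in the controls (0.45 ± 0.073, adjusted p = 0.0107). MTIF2, the initiation factor, was at 0.36 (adjusted p = 0.0374) and GUF1, a GTPase related to bacterial LepA, at 0.40 (0.0422). A list of 15 tested genes held mitochondrial tRNA synthetases and the glutamyl-tRNA amidotransferase subunits GATB, GATC and QRSL1, which were not called. In it 3 synthetases were lower (20.0% of the list, beside 15.3% of all clusters). They were TARS2 (-0.52, adjusted p = 0.0102), IARS2 (-0.41, 0.0138) and CARS2 (-0.42, 0.0240). AARS2 at -0.29 did not pass (0.0874).

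Among 16 genes for transcription and replication of mitochondrial DNA, TOP1MT, the mitochondrial topoisomerase, was higher (0.45, adjusted p = 0.0457) and the helicase TWNK just missed the threshold (0.40, 0.0513). Of 8 regulators, GABPB2, a β subunit of GABP, was lower: 92.5 and 102 in the knockdown, against 158 and 179 in the controls (-0.70 ± 0.13, adjusted p = 0.0139). SP1 (-0.26, adjusted p = 0.100) and CREB1 (0.10, 0.433) were not called.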

How the data were processed

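RNA of MDA-MB-231 cells (2 α3 knockdown and 2 control arrays, n = 2 per group) was read from 8 deposited samples, 4 at the gene and 4 at the exon level; groups come from the labels. Per the labels, the authors deposited PLIER intensity values from Expression Console (core gene and core exon analysis; version not given in the sources used here), after removal of ribosomal RNA and biotin labelling, and the Exon Array Computational Tool is named in the design text. Normalization between arrays is not given in the sources used here and was left as deposited.

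Symbols came from the supplied platform annotation (1 symbol for 14432 gene-level clusters, several for 2408 and no row for 5171; 261273, 9155 and 16901 at the exon level), updated through RefSeq. Features in the lower 40% by mean log2(value + 16) were left out, and the groups were fitted by limma (version 3.58.1, R 4.3.3; lmFit and eBayes with an intensity trend, two-sided) over all features, with Benjamini-Hochberg adjustment at 0.05. Exon-level probesets, their per-gene medians (at least 3 probesets) and each probeset against its gene were fitted likewise. The fits were also run on simulated data with known changes, at the main settings only. That simulation drew independent noise with no shift of whole arrays, and its outcome is not reported here. The software was Python 3.11.15 with pandas 2.3.3 and matplotlib 3.10.9, and R with its package data.table (version 1.17.8). Values named are the called members, the brightest and dimmest of each subunit, the S18 paralogs, the ends of each structural group, and partner genes with the smallest p; MRPS5, MRPS6, MRPS10, MRPS12, MRPS17 and the head-to-head neighbours were named after their values were seen. Members, lists and alternatives were chosen with earlier results of these data known. Alternatives were other offsets, filters, variance models, scalings, a replicate block and single arrays left out; placing MRPS30 in the large subunit was chosen after seeing the data.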

Additional observations from a re-analysis of the deposited data

How the results depend on the processing

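Of 20 single genes followed through the alternatives (260 values), 183 values stayed on the same side of the threshold, 77 lost the call (50 of them without 1 array) and 0 reversed. With single arrays left out, members called at the gene level ranged from 2 to 17 lower and 0 to 2 higher, probesets from 3 to 6 lower and 0 to 4 higher, per-gene medians from 1 to 5 lower and 0 to 1 higher, MRPL genes from 1 to 11 lower, MRPS genes from 0 to 6 lower and 0 to 2 higher, and partner genes from 0 to 9 lower and 0 to 7 higher; probesets differing from the rest of their gene ranged from 0 to 1. Without the filter, more features were tested, and 7 members were lower and 1 higher at the gene level (MRPL 4 lower, MRPS 3 lower and 1 higher), 0 probesets lower and 0 higher, 4 medians lower and 0 higher, and 5 partner genes lower and 1 higher. Without the intensity trend the counts were 9 lower members, 2 lower and 0 higher probesets, and 5 lower and 0 higher medians. Quantile normalization gave 4 higher members (all MRPS), 8 lower and 3 higher probesets, 3 higher medians and 12 higher partner genes. Centring gave 9 lower and 4 higher members (MRPS 3 lower, 4 higher), 5 lower and 2 higher probesets, 3 higher medians and 12 higher partner genes. With an offset of 1 the higher probeset was lost (0), robust variances gave 2 higher probesets, and leaving out the lower 60% gave 2 higher probesets and 2 higher medians. The cause of these shifts was not tested.

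The labels do not say whether control and knockdown cultures of the same replicate number were paired, and pairing was not tested. Deviations of same-numbered arrays from their group means correlated at 0.29 at the gene and 0.30 at the exon level, with 2 pairs. With the replicate block 4 members were higher (all MRPS) and 14 MRPL genes lower, 62 probesets were lower and 30 higher, 14 medians lower and 5 higher, 10 partner genes higher, and 1 probeset differed from the rest of its gene.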
